A study of Homo sapiens with 26 samples.

Results

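The clustered protocadherin genes of the human genome were followed through RNA sequencing of KELLY, a much used cell line from a human neuroblastoma in which MYCN is amplified. Members were taken by symbol, as every gene of the deposited tables whose name begins with PCDHA, PCDHB, PCDHGA, PCDHGB, PCDHGC or PCDHAC followed by a number. This gave 57 of the 26485 genes, of which 15 belong to the alpha cluster, 19 to the beta cluster and 23 to the gamma cluster, and 4 are pseudogenes. The rule reads symbols only. The cultured cells were 3 lines that carried a doxycycline-inducible vector, which was F1HUTG without a hairpin (empty vector, EV) or held one of the short hairpin RNAs sh4 and shAMB directed against RUNX1T1, a transcriptional co-repressor. Each line received doxycycline or its solvent DMSO for 72 h, with 3 libraries a group and 18 in all. The 8 xenografts were KELLY tumours grown under the skin of immunodeficient NOD SCID gamma mice. Of these, 4 came from mice on control food and are titled Control and labelled WT. Another 4 came from mice on doxycycline food and are labelled RUNX1T1 KO, although the methods of the study describe an inducible hairpin and not a deletion. The labels do not say which hairpin the tumours carried. The text of the study names the one it calls sh #1, based on an Ambion siRNA, and the labels do not tie that name to sh4 or shAMB. Cells of the control tumours also held the vector per the methods. All libraries derive from 1 cell line, and the labels do not say whether replicates were separate cultures, so that p-values in culture measure the spread between these libraries only.

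Clustered protocadherins are cadherin-like proteins of the neuronal surface. They pair between cells with a partner of exactly the same kind, and the combination that a neuron displays gives it an identity by which its own branches recognise and avoid each other. The 3 clusters lie side by side on the long arm of chromosome 5. In the alpha and gamma clusters each variable exon has its own promoter, and its transcript is spliced to a set of constant exons shared by the whole cluster. Genes of the beta cluster have a single large exon and share none. Most of these promoters are chosen at random in each neuron, with CTCF and cohesin bringing the chosen promoter to a distant enhancer, while DNA methylation and SMCHD1 keep others silent. The C-type members, PCDHAC1, PCDHAC2, PCDHGC3, PCDHGC4 and PCDHGC5, are instead expressed broadly in many neurons. In neuroblastoma the locus is known for methylation of many of its promoters.

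Alternative protocadherin promoters are known to share a short element around the letters CGCT. Promoter windows of RefSeq on GRCh38.p14, from 250 bases before to 50 bases after a gene start, were at hand for 47 of the 57 members. Of these, 41 held TGNCGCT or CGNCGCT on the coding strand, in 10 of 13 alpha, 13 of 14 beta and 18 of 20 gamma windows. On either strand the same pair of motifs was present in 29.6% of the windows of all 27305 genes, and in 12 alpha, 13 beta and 18 gamma windows. The letters before and after CGCT differed by cluster. ATGTCGCT was present in 9 of 13 alpha windows and 0.282% of all windows, GGTGGCGCT in 13 of 14 beta windows and 0.619% of all, and CGCCGCTG in 10 of 20 gamma windows and 5.19% of all. These motifs overlap each other and were searched on both strands. The windows of PCDHA9, PCDHAC1, PCDHAC2, PCDHB1, PCDHGB7 and PCDHGC4 did not hold either motif on the coding strand, which says nothing about binding of CTCF there.

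The stretches of 25 bases below are shown for leading or changed members, with PCDHA2 as the example of an alpha window and PCDHGB4 for its likeness to PCDHGB5. CGCT is in capitals, all on the plus strand of GRCh38.p14. They lie at chr5:140794780-140794804 for PCDHA2, chr5:141094543-141094567 for PCDHB2, chr5:141135178-141135202 for PCDHB5, chr5:141192298-141192322 for PCDHB10, chr5:141177776-141177800 for PCDHB8 and chr5:141182309-141182333 for PCDHB16. Those of the gamma cluster lie at chr5:141387616-141387640 for PCDHGB4, chr5:141397862-141397886 for PCDHGB5 and chr5:141475879-141475903 for PCDHGC3. All lie upstream of the annotated start site except that of PCDHB8, which lies around it.
PCDHA2: ttttagccacatgatgtCGCTgtcc
PCDHB2: gaagagacgcggggtggCGCTgcag
PCDHB5: attaggacgcctggtggCGCTgcag
PCDHB10: tggaggccacacggtggCGCTgcag
PCDHB8: gtgaggacccgtggtggCGCTgcag
PCDHB16: gtgagaacgcgtggtggCGCTgcag
PCDHGB4: gtgctgactctgggcgcCGCTgttg
PCDHGB5: gtgctgactctgggcgcCGCTgttg
PCDHGC3: gctgggactctgtgtgcCGCTgtcg
PCDHGB4 and PCDHGB5 have the same 25 letters here. Their levels differed widely, with a mean TPM (transcript abundance scaled to a fixed total per library, which accounts for gene length) of 0.193 ± 0.0404 for PCDHGB4 and 11.7 ± 0.491 for PCDHGB5 in EV cells with DMSO (SD, n = 3).

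Several properties of the data bear on these genes. Total expected counts, the estimated numbers of read pairs assigned to genes, were 35115915 to 54736733 in culture and 47346063 to 62378060 in xenografts. The RNA of RUNX1T1 itself did not pass the test for doxycycline in any line or for the xenografts. It stood at 33.3 to 35 CPM (counts scaled to a fixed total per library) with DMSO and 30.1 to 33.9 CPM with doxycycline in the sh4 line (adjusted p = 0.117), and at 39.9 to 42.0 and 41.3 to 44.1 CPM in the shAMB line (adjusted p = 0.378). In xenografts it was 30.0 to 43.1 CPM in those labelled control and 24.3 to 35.2 CPM in those labelled KO (adjusted p = 0.229). Between lines with DMSO it was lower in sh4 than in EV, by -0.29 on the log2 scale (adjusted p = 0.0144), and the doxycycline effect in shAMB lay above that in EV by 0.21 (adjusted p = 0.0353). The labels are therefore used as given, and the direction in culture further rests on reading the column names Neg and Pos as DMSO and doxycycline. Markers of sympathetic neuroblasts were high in every group, with the 8 genes summing to 1640 to 3360 CPM. Markers of glial, endothelial, fibroblast and leukocyte cells, 4 genes each, summed to at most 6.97, 15.5, 76.8 and 2.09 CPM in any library. Summed fibroblast markers moved with doxycycline as the beta cluster did, from 33.5 to 44.6 CPM to 56.0 to 76.8 CPM in sh4 and from 37.5 to 45.5 CPM to 26.2 to 33.4 CPM in shAMB, and their part in the results was not tested. Glial markers summed to 5.17 to 6.97 CPM in control xenografts and 2.60 to 3.16 CPM in KO tumours. Endothelial markers went from 2.67 to 3.17 CPM to 4.55 to 6.72 CPM in sh4 and from 2.19 to 2.63 CPM to 5.42 to 7.89 CPM in shAMB. Markers of astrocytes and brain neurons went from 1.30 to 1.97 CPM to 2.60 to 3.17 CPM and from 1.20 to 1.72 CPM to 2.69 to 3.22 CPM. The part of these lists was not tested either. The sums rested on few and differing genes. Among endothelial markers only KDR averaged at least 1 CPM with DMSO and only VWF with doxycycline, in both hairpin lines. Among those of astrocytes and brain neurons with doxycycline, only GFAP did so in sh4 and only SLC17A7 in shAMB. The fibroblast markers COL1A2 and DCN averaged under 1 CPM in every group. In bulk RNA fewer cells expressing a gene and less RNA per cell cannot be told apart, which matters for genes that each cell may switch on or off singly.

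Because constant exons are shared, reads from them cannot be placed with 1 alpha or gamma gene. In the GENCODE annotation the share of exon bases that a member has in common with other members was 19.22% to 56.65% among alpha genes, with a median of 46.56%. It had a median of 43.8% among gamma genes and was 0 among beta genes. Estimated counts above 0 were whole numbers in 87.5% of values over all genes in culture, but in 17.2% for alpha, 58.2% for beta and 47.1% for gamma genes, so that many were split between genes by the counting. Levels and changes of single alpha and gamma genes are uncertain for this reason. Beta genes resemble each other closely in sequence and are affected to a lesser degree. The use of strand in counting is not stated, and annotated transcripts of the opposite strand cover 43.85% of exon sequence in PCDHB2, 36.44% of PCDHB19P, 21.22% of PCDHB16, 14.69% of PCDHB5 and 48.6% of PCDHA1. PCDHB1 and PCDHB17P had at most 9.02 counts in any culture library and 11 in any xenograft and were not tested, which left 55 members tested in each table.

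Doxycycline in the EV line and the presence of a hairpin vector without doxycycline gave the background for the other comparisons. With doxycycline in EV cells 0 of 55 members passed an adjusted p of 0.05 in edgeR, where 0.0939% of all genes tested did. DESeq2 and limma also called 0, and 3 members had an unadjusted p under 0.05, namely PCDHA3, PCDHB2 and PCDHGA1. Between lines kept in DMSO, sh4 against EV gave 1 member called of 55 (background 1.12%), which was PCDHB2. It stood at 27.2, 28.1 and 26.6 CPM in EV and at 33.4, 34.6 and 32.2 CPM in sh4, a rise of 0.29 on the log2 scale (SE 0.045, adjusted p = 0.00283). The shAMB line against EV also gave 1 (background 1.52%), PCDHB10, with a rise of 0.25 (SE 0.0562, adjusted p = 0.0328). The rise of PCDHB10 did not pass the threshold when any 1 of the 6 libraries was left out (adjusted p of 0.07 to 0.175).

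With a hairpin induced, calls in the beta cluster went in opposite directions in the lines, while edgeR called leading gamma genes lower in both. In sh4 cells doxycycline raised 15 members and lowered 2, so that 17 of 55 were called (30.9%), while 40.9% of all genes tested were called, 22.9% higher and 18% lower. In shAMB cells it raised 2 members and lowered 16. These 18 of 55 (32.7%) compare with 66.0% of all genes, 37.6% higher and 28.4% lower. In xenografts labelled KO 4 members were higher and 14 lower than in the control, again 18 of 55, against 41.1% of all genes, 21.2% higher and 19.9% lower. Members as a whole were thus called no more often than other genes, and the results lie in the direction within each cluster. Lack of overlap between groups was common too. It held for 20 of 55 members in sh4, 19 in shAMB and 15 in xenografts. Over all genes tested it held for 41.3%, 73.4% and 36.7%. When the effect of doxycycline was compared with that in EV cells, 13 of 55 members differed in sh4, 12 of them higher (background 32.6%). The 12 included PCDHB5 (0.26, adjusted p = 0.0435) and PCDHA3 (0.43, adjusted p = 0.0442), which did not pass in sh4 alone. In shAMB 9 of 55 differed from EV, 6 of them lower (background 45.5%). Both of these comparisons share the EV libraries. The effects in sh4 and shAMB themselves differed for 20 of 55 members (background 60.9%), of which 17 were higher in sh4 (background 27.8%).

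**Figure D1:**
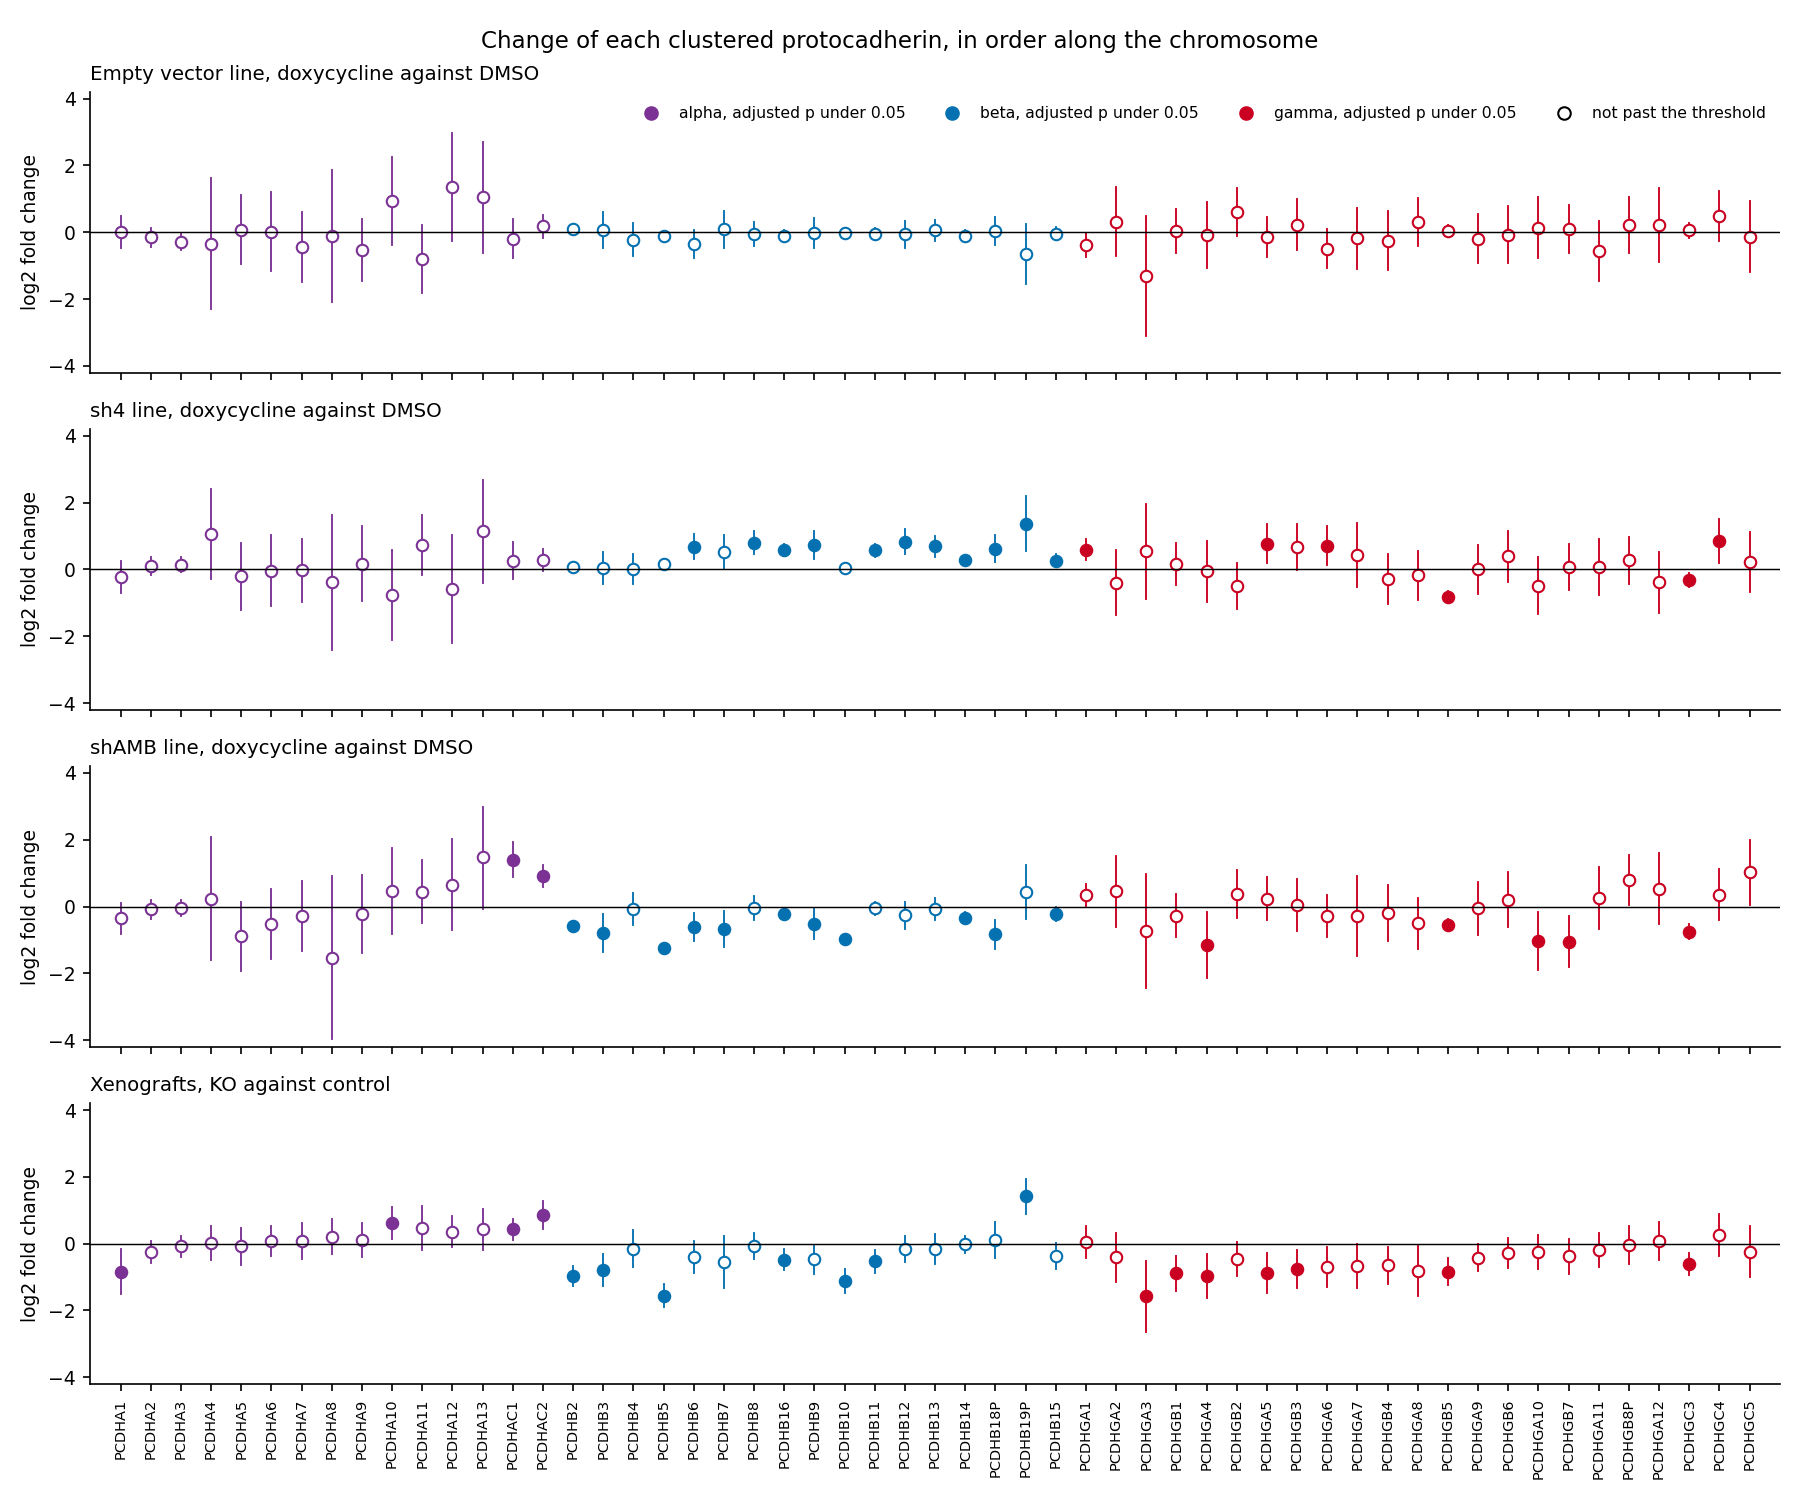
Log2 fold change of the 55 tested members in their order along the chromosome (x axis) in 4 comparisons, 1 a panel, with 95% confidence intervals as lines. Filled points have an adjusted p under 0.05. In the beta cluster 11 members were called higher in sh4 and 11 were called lower in shAMB.

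The summed level of the beta cluster, whose genes each stand alone with their own promoter, showed the contrast between the lines most plainly. With DMSO the 19 genes summed to 128, 127 and 129 CPM in EV, 136, 141 and 141 CPM in sh4, and 129, 137 and 134 CPM in shAMB. With doxycycline they summed to 125, 125 and 124 CPM in EV, to 171, 168 and 162 CPM in sh4 and to 91.3, 85.7 and 87.4 CPM in shAMB. All sh4 libraries with doxycycline lay above, and all shAMB libraries with doxycycline below, every other culture library. The xenografts labelled control held 111, 104, 103 and 109 CPM and those labelled KO 80.6, 65.7, 60.2 and 66.6 CPM, without overlap. As ratios of means, the beta sum was 1.20 times that with DMSO in sh4, 0.660 times in shAMB and 0.639 times that of the control in xenografts. On the TPM scale these ratios were 1.33, 0.736 and 0.629, and the xenograft groups then overlapped.

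**Figure D2:**
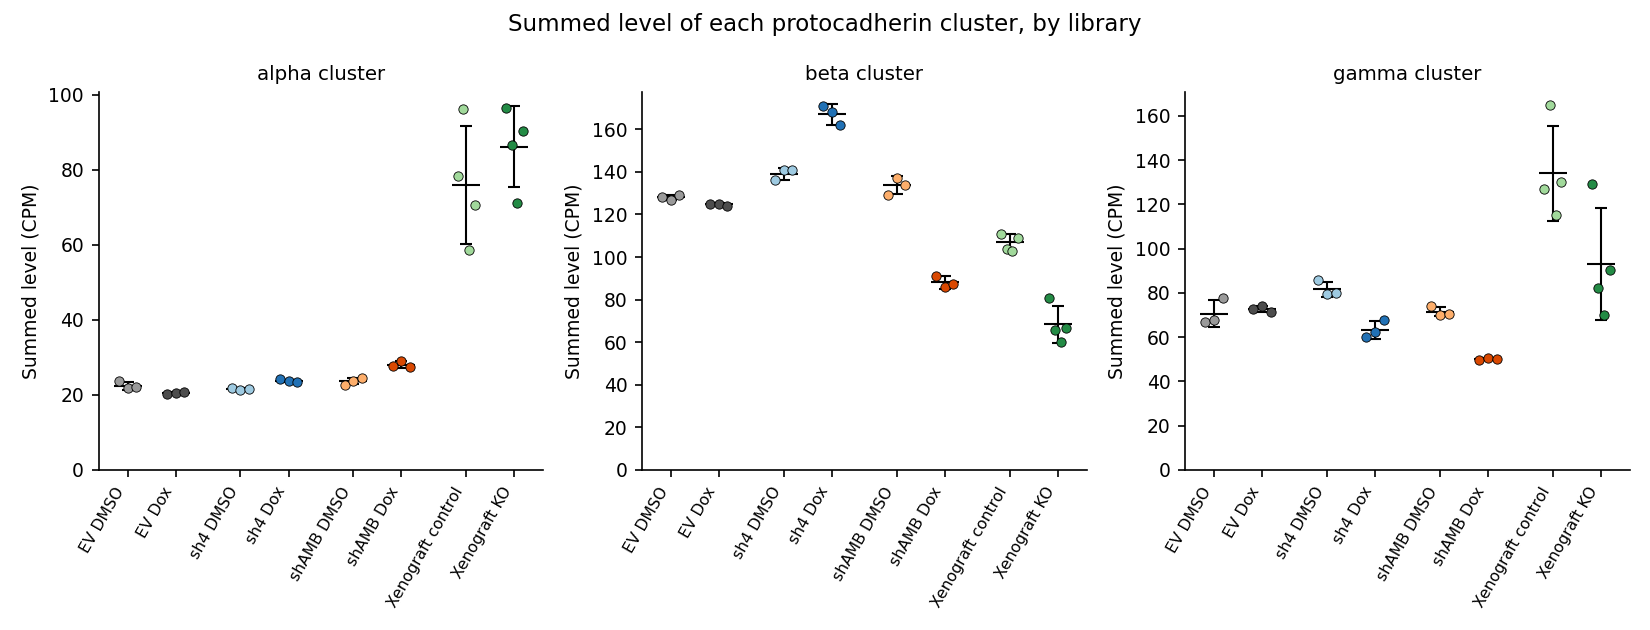
Summed CPM of the members of each cluster (y axis) in every library, with 3 culture or 4 xenograft libraries a group. Horizontal marks are means and bars SD. The beta sum was 167 ± 4.95 CPM in sh4 and 88.1 ± 2.9 CPM in shAMB cells with doxycycline.

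The beta cluster was led by PCDHB2, PCDHB5 and PCDHB10, which made up 64.5% of its summed TPM in EV cells with DMSO. In shAMB cells PCDHB5 stood at 25.5, 29.7 and 26.6 CPM with DMSO and at 12.3, 10.6 and 11.5 CPM with doxycycline. The groups lay far apart, and the level was 2.38-fold lower (log2 fold change -1.25, SE 0.0687, adjusted p = 4.12e-10). In xenografts it was 19.9, 16.3, 19.6 and 18.2 CPM in the control and 8.23, 5.89, 5.82 and 5.19 CPM in those labelled KO, or 2.94-fold lower (adjusted p = 4.79e-05). PCDHB10 followed the same course, from 23.5, 24.1 and 23.1 CPM to 12.6, 11.9 and 11.9 CPM in shAMB (1.94-fold lower, adjusted p = 1.02e-09). Its xenograft values were 16.9, 13.1, 15.1 and 15.5 CPM in the control against 9.06, 6.21, 5.61 and 6.81 CPM (2.19-fold lower, adjusted p = 0.000399). PCDHB2 fell from 29.0, 29.2 and 30.2 CPM to 19.2, 19.7 and 20.1 CPM in shAMB (1.5-fold, adjusted p = 2.22e-08), and from 20.2, 18.2, 19.7 and 20.2 CPM to 12.4, 8.78, 9.07 and 9.31 CPM in xenografts (1.98-fold, adjusted p = 0.000259).

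In sh4 cells these leading genes did not pass the test on counts. PCDHB5 was 28.4, 29.2 and 31.1 CPM with DMSO and 33.2, 33.1 and 32.2 CPM with doxycycline, a difference of 0.15 on the log2 scale with a 95% confidence interval of 0.01 to 0.29 (adjusted p = 0.0775). The difference was 0.06 for PCDHB2 (interval -0.04 to 0.15) and 0.03 for PCDHB10 (interval -0.09 to 0.14), so that shifts as large as those in shAMB lay outside these intervals. On the TPM scale limma called all 3 higher in sh4, with 0.33 for PCDHB5, 0.23 for PCDHB2 and 0.20 for PCDHB10 (adjusted p = 0.00136, 0.00054 and 0.00855), where the median over all genes was itself 0.15. By that test 14 of the 15 beta genes it kept were higher in sh4. The difference between the sh4 and shAMB effects was 1.40 for PCDHB5 (SE 0.0951, adjusted p = 9.24e-09), 0.98 for PCDHB10 (SE 0.0795, adjusted p = 6.45e-08) and 0.64 for PCDHB2 (SE 0.0637, adjusted p = 6.32e-07).

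Other beta genes rose in sh4 in the test on counts. Of the 17 tested, 11 were higher with doxycycline and 0 lower, with a median log2 fold change of 0.57, where the median over all genes was 0.0. These 64.7% compare with 22.9% of all genes called higher and 40.9% called in either direction. The 11 were PCDHB6, PCDHB8, PCDHB9, PCDHB11, PCDHB12, PCDHB13, PCDHB14, PCDHB15, PCDHB16 and the pseudogenes PCDHB18P and PCDHB19P. PCDHB8 rose from 3.49, 3.15 and 3.66 CPM to 5.66, 6.54 and 5.64 CPM (1.73-fold, adjusted p = 0.00106). PCDHB12 rose from 1.77, 1.85 and 1.47 CPM to 3.50, 2.65 and 2.97 CPM (1.78-fold, adjusted p = 0.00149), and PCDHB13 from 2.72, 2.73 and 2.63 CPM to 4.30, 4.69 and 4.08 CPM (1.62-fold, adjusted p = 0.00147). None of these groups overlapped. PCDHB16, which per length had the highest mean of the 11 with doxycycline (9.47 TPM), stood at 12, 12.6 and 13.5 CPM with DMSO and at 19.1, 20.8 and 17.3 CPM with doxycycline (1.51-fold, adjusted p = 3.58e-05). Along the chromosome the members that rose run from PCDHB6 to PCDHB15 with PCDHB7 and PCDHB10 between them not passing the test, while the tested members before PCDHB6, namely PCDHB2, PCDHB3, PCDHB4 and PCDHB5, were not called.

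In shAMB 11 of the 17 tested beta genes were lower with doxycycline and 0 higher, with a median of -0.33 against 0.10 over all genes. These 64.7% called lie near the 66.0% of all genes called in either direction. Against the effect in EV 4 of 17 were lower (23.5%, background 45.5%), and limma on TPM called 5 of 15 lower. The 11 were PCDHB2, PCDHB3, PCDHB5, PCDHB6, PCDHB7, PCDHB9, PCDHB10, PCDHB14, PCDHB15, PCDHB16 and PCDHB18P. Beyond the leading genes, PCDHB7 stood at 1.43, 1.12 and 1.26 CPM and then at 0.560, 1.07 and 0.738 CPM (1.59-fold lower, adjusted p = 0.0287). PCDHB8, PCDHB11, PCDHB12 and PCDHB13, which rose in sh4, differed by -0.05, -0.05, -0.26 and -0.08 in shAMB and did not pass the test. The sh4 effect was higher than the shAMB effect for 15 of 17 beta genes, with a median difference of 0.85 where the median over all genes was -0.09. Over all genes 60.9% were called for this difference, 27.8% higher and 33.1% lower. The 2 beta genes that did not pass were PCDHB4 (0.07, interval -0.58 to 0.73, adjusted p = 0.846) and PCDHB19P (0.93, interval -0.23 to 2.10, adjusted p = 0.152).

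For 6 of 17 beta genes the effect was called higher in sh4 and lower in shAMB, which held for 6.94% of all genes tested. The opposite pattern was seen in 0 beta genes and 806 of all genes. PCDHB6, which stood at 1.5, 2.28 and 1.62 CPM with DMSO in sh4, was 3.12, 2.92 and 2.60 CPM with doxycycline (log2 fold change 0.68, adjusted p = 0.00661). In shAMB it went from 1.75, 1.64 and 1.55 CPM to 1.21, 1.19 and 0.831 CPM (-0.61, adjusted p = 0.0122). PCDHB18P, a pseudogene, showed 0.62 in sh4 and -0.82 in shAMB (adjusted p = 0.0156 and 0.00243). PCDHB9 showed 0.73 and -0.52 (adjusted p = 0.00696 and 0.0395), PCDHB16 0.59 and -0.23 (adjusted p = 3.58e-05 and 0.0257), PCDHB14 0.29 and -0.33 (adjusted p = 0.00432 and 0.000958) and PCDHB15 0.26 and -0.22 (adjusted p = 0.0338 and 0.0486). The tests of the difference itself gave 1.44 for PCDHB18P (adjusted p = 0.000423), 1.28 for PCDHB6 (adjusted p = 0.000707), 1.25 for PCDHB9 (adjusted p = 0.00164), 0.82 for PCDHB16 (adjusted p = 3.12e-05), 0.62 for PCDHB14 (adjusted p = 0.000107) and 0.48 for PCDHB15 (adjusted p = 0.00538). These tests add no separate support, because the genes were picked by their opposite calls. Over all genes, the difference was called for all 1034 with that pattern. Limma on TPM did not call PCDHB9, PCDHB14, PCDHB15 or PCDHB16 in shAMB (-0.28, -0.15, -0.04 and -0.05), whereas it called the difference between the lines for all 6.

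Xenografts labelled KO had 6 beta genes lower and 1 higher of 17 tested, with a median of -0.40 against 0.02 over all genes. The share called, 41.2%, was that of all genes (41.1%), and limma on TPM called PCDHB5 and PCDHB10 alone of the 8 beta genes it kept. Besides PCDHB2, PCDHB5 and PCDHB10, the lower ones were PCDHB3, PCDHB11 and PCDHB16. PCDHB3 was 3.68, 4.02, 2.68 and 3.23 CPM in the control and 2.40, 1.73, 1.42 and 2.28 CPM in KO tumours (1.73-fold lower, adjusted p = 0.0144). The gene that was higher, the pseudogene PCDHB19P, went from 0.683, 1.02, 0.627 and 0.803 CPM to 2.11, 2.08, 1.62 and 2.61 CPM (2.69-fold, adjusted p = 0.00084). It was also the beta member with the largest rise in sh4, where it stood at 0.0769, 0.197 and 0.245 CPM with DMSO and 0.401, 0.448 and 0.466 CPM with doxycycline (log2 fold change 1.37, adjusted p = 0.0102).

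Some of these calls hung on a single library. In sh4 the call of PCDHB18P was lost without DMSO replicate 3 (0.56, adjusted p = 0.0502), that of PCDHB19P without DMSO replicate 1 (0.98, adjusted p = 0.0632), and that of PCDHB15 without any 1 of 5 libraries, all but doxycycline replicate 3 (adjusted p of 0.056 to 0.104). In shAMB PCDHB15 was lost without any 1 of its 6 libraries (adjusted p of 0.0518 to 0.143). PCDHB16 was lost without DMSO replicate 2 or 3 or doxycycline replicate 3 (adjusted p = 0.0694, 0.099 and 0.12). PCDHB9 was lost without DMSO replicate 1 or 2 or doxycycline replicate 1 or 2 (adjusted p = 0.0915, 0.162, 0.0977 and 0.182), and PCDHB7 without DMSO replicate 1 or 3 or doxycycline replicate 1 or 3 (adjusted p = 0.0953, 0.0534, 0.119 and 0.0782). PCDHB3 was lost without DMSO replicate 2 or 3 (adjusted p = 0.0733 and 0.0759) and PCDHB6 without doxycycline replicate 3 (adjusted p = 0.062). Among xenografts PCDHB16 was lost without control replicate 4 or KO replicate 2 or 3 (adjusted p = 0.0838, 0.0701 and 0.0661), and PCDHB11 without the same libraries (adjusted p = 0.0693, 0.0678 and 0.0503). Over these exclusions 9 to 11 beta genes were called higher and 0 lower in sh4, 7 to 9 lower and 0 higher in shAMB, and 4 to 7 lower and 1 higher in xenografts.

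**Figure D3:**
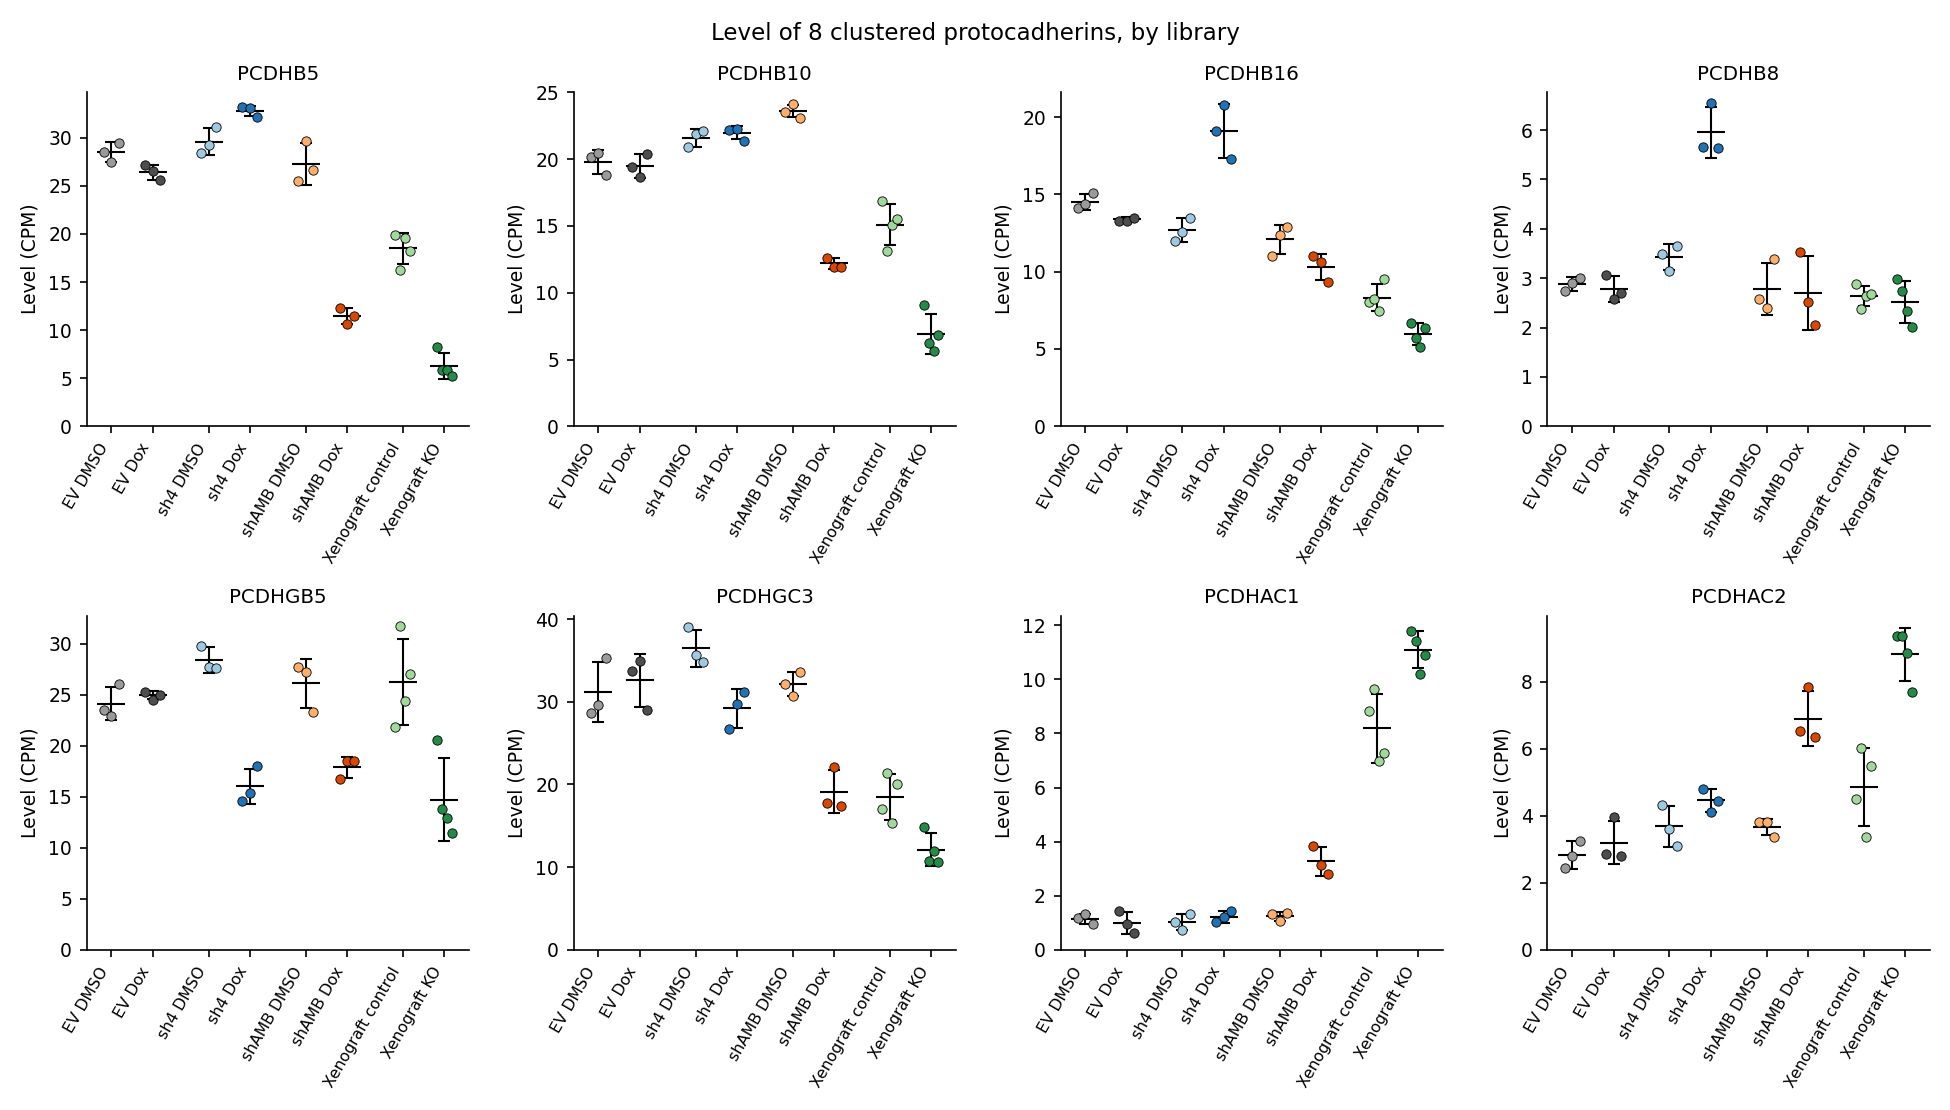
CPM of 8 members (y axis, 1 panel each) in every library, with group means and SD as black marks. PCDHB5 and PCDHB10 were lower in shAMB with doxycycline and in KO tumours, PCDHB16 and PCDHB8 were higher in sh4 with doxycycline, and PCDHGB5 was lower in all 3.

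The gamma cluster in culture rested on PCDHGB5, an alternative member, and PCDHGC3, a C-type member that is known to be expressed outside the nervous system too. Together they made up 74.2% of the summed gamma TPM in EV cells with DMSO. Both were called lower in both hairpin lines and in xenografts in the test on counts. PCDHGB5 went from 29.8, 27.7 and 27.6 CPM to 14.6, 15.4 and 18 CPM in sh4 (1.77-fold lower, log2 fold change -0.83, SE 0.0845, adjusted p = 1.18e-06). In shAMB it went from 27.7, 27.2 and 23.3 CPM to 16.7, 18.5 and 18.5 CPM (1.46-fold lower, adjusted p = 4.03e-05). The control xenografts held 21.8, 31.7, 24.4 and 27.0 CPM and the KO tumours 20.6, 13.8, 12.9 and 11.4 CPM (1.79-fold lower, adjusted p = 0.00465). In EV cells it stood at 23.5, 22.9 and 26.0 CPM with DMSO and 25.3, 24.5 and 25.0 CPM with doxycycline, a difference of 0.05 (adjusted p = 0.774). The groups did not overlap in any comparison but that of EV, and the drop was larger in sh4 than in shAMB by 0.28 on the log2 scale (adjusted p = 0.0489). The call for this difference was lost under every alternative other than leaving out a library, limma on TPM among them (-0.21, adjusted p = 0.116).

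PCDHGC3 fell from 32.2, 30.7 and 33.6 CPM to 17.8, 22.1 and 17.4 CPM in shAMB (1.68-fold, adjusted p = 1.42e-05), and from 17, 21.4, 15.4 and 20 CPM to 14.9, 10.7, 12 and 10.6 CPM in xenografts (1.53-fold, adjusted p = 0.00833). In sh4 it was 39.0, 35.7 and 34.8 CPM with DMSO and 26.7, 29.7 and 31.2 CPM with doxycycline (1.25-fold lower, adjusted p = 0.0203). That call was lost without DMSO replicate 1 (-0.29, adjusted p = 0.066) or doxycycline replicate 1 (-0.26, adjusted p = 0.0885), and the effect did not pass the test against that in EV (-0.39, adjusted p = 0.0535). Limma on TPM did not call PCDHGC3 in sh4 (-0.07, adjusted p = 0.626). The drop in shAMB exceeded that in sh4 by 0.43 (adjusted p = 0.0203). The other C-type genes of the cluster were lower per length, with a mean of 0.15 TPM for PCDHGC4 and 0.163 TPM for PCDHGC5 against 16.6 TPM for PCDHGC3 in EV cells with DMSO. PCDHGC4 was 0.192, 0.338 and 0.245 CPM with DMSO and 0.432, 0.372 and 0.604 CPM with doxycycline in sh4 (0.85, adjusted p = 0.0424), a call lost without DMSO replicate 1 or 3 or doxycycline replicate 1 or 3 (adjusted p = 0.175, 0.0872, 0.0641 and 0.141). PCDHGC5 did not pass the test in sh4, shAMB or xenografts, with differences of 0.21, 1.03 and -0.25.

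The remaining gamma genes moved less evenly. In sh4 PCDHGA1, PCDHGA5, PCDHGA6 and PCDHGC4 were higher, and PCDHGB5 and PCDHGC3 lower, of 23 tested. The share called was 26.1%, against 40.9% of all genes. PCDHGA1 rose from 1.46, 1.24 and 1.54 CPM to 2.01, 2.39 and 1.96 CPM (1.51-fold, adjusted p = 0.00505). PCDHGA6 rose from 0.923, 0.767 and 0.637 CPM to 1.25, 1.32 and 1.25 CPM (1.63-fold, adjusted p = 0.0489), a call lost without any 1 of the 6 libraries (adjusted p of 0.0536 to 0.134). The call of PCDHGA5 (0.77, adjusted p = 0.0378) was lost without DMSO replicate 1 or 3 or doxycycline replicate 1 or 2 (adjusted p = 0.0566, 0.158, 0.0594 and 0.125). In shAMB edgeR called 5 gamma genes lower and 0 higher, with PCDHGA4, PCDHGA10 and PCDHGB7 beside the leading pair. Here 21.7% were called, against 66.0% of all genes. Limma on TPM called 3 of the 13 gamma genes it kept lower and 2 higher, where the median over all genes was 0.25. The 2 higher were PCDHGA1 (0.47, adjusted p = 0.00696) and PCDHGA2 (0.78, adjusted p = 0.00235). PCDHGB7 fell from 1.37, 0.945 and 1.32 CPM to 0.313, 0.636 and 0.807 CPM (2.06-fold, adjusted p = 0.0197), and lost its call without DMSO replicate 1 or 3 or doxycycline replicate 1 (adjusted p = 0.0629, 0.0512 and 0.0831). PCDHGA4 (-1.15, adjusted p = 0.0407) was lost without DMSO replicate 2 or 3 or doxycycline replicate 2 or 3 (adjusted p = 0.107, 0.11, 0.146 and 0.137). PCDHGA10 (-1.04, adjusted p = 0.0354) was lost without DMSO replicate 1 or 3 or doxycycline replicate 2 or 3 (adjusted p = 0.351, 0.0518, 0.126 and 0.0557), and without DMSO replicate 1 its difference was -0.44.

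In xenografts 7 of 23 gamma genes were lower in KO tumours and 0 higher, and the median of -0.47 compares with 0.02 over all genes. The share called, 30.4%, lay below the 41.1% of all genes. Limma on TPM called 0 of the 15 gamma genes and 0 of the 12 alpha genes it kept in xenografts. Beside PCDHGB5 and PCDHGC3 the gamma genes called lower were PCDHGA3, PCDHGA4, PCDHGA5, PCDHGB1 and PCDHGB3. PCDHGB1 was 4.65, 5.51, 4.42 and 4.87 CPM in the control and 3.87, 2.34, 1.67 and 2.61 CPM in KO tumours (1.85-fold lower, adjusted p = 0.0122), without overlap. PCDHGA4 was 4.48, 5.24, 4.09 and 5.13 CPM against 3.94, 2.13, 1.17 and 2.44 CPM (1.96-fold lower, adjusted p = 0.0255), and lost its call without control replicate 2 or 4 or KO replicate 2 (adjusted p = 0.0601, 0.0605 and 0.0709). PCDHGA3, PCDHGA5 and PCDHGB3 differed by -1.58, -0.88 and -0.75 with overlapping groups, and each lost its call without at least 1 library. For PCDHGA3 these were control replicate 4 and KO replicates 2 and 3 (adjusted p = 0.0658, 0.0644 and 0.0649), for PCDHGA5 control replicate 2 and KO replicates 2 and 3 (adjusted p = 0.0744, 0.0786 and 0.0713), and for PCDHGB3 every one of control replicates 1, 2 and 4 and KO replicates 2 and 3 (adjusted p of 0.0528 to 0.114). KO replicate 1 was the highest of its group for PCDHGB5, PCDHGC3, PCDHGB1, PCDHGA4, PCDHB2, PCDHB5, PCDHB10 and PCDHB3. Without it 14 gamma, 7 beta and 1 alpha members were lower and 3 members of all clusters were higher, 25 in place of 18 called. Without KO replicate 2 only 9 were called, without control replicate 4 there were 10 and without KO replicate 3 there were 11.

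The gamma sum fell from 85.6, 79.3 and 79.7 CPM to 59.8, 62.3 and 67.6 CPM in sh4 and from 73.9, 70 and 70.6 CPM to 49.7, 50.5 and 50.3 CPM in shAMB. In EV it was 66.8, 67.7 and 77.5 CPM with DMSO and 72.7, 73.9 and 71.4 CPM with doxycycline. The sh4 libraries with DMSO thus lay above every EV library, and those with doxycycline overlapped EV with DMSO. On the TPM scale the sh4 groups overlapped, with a ratio of 0.954 in place of 0.776, and the shAMB ratio was 0.826 in place of 0.702. In xenografts the sum was 127, 165, 115 and 130 CPM in the control and 129, 82.0, 70.1 and 90.5 CPM in KO tumours, which overlapped through KO replicate 1.

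The alpha cluster had the fewest calls of the 3. In sh4 0 of 15 passed the test in edgeR, 0 had an unadjusted p under 0.05, and 0 passed in DESeq2. Limma on TPM called 3 of the 5 genes it kept higher, where the median over all genes was itself 0.15. These were PCDHAC1 (0.72, adjusted p = 0.0136), PCDHAC2 (0.31, adjusted p = 0.0207) and PCDHA3 (0.24, adjusted p = 0.0277). The alpha sum stood at 23.6, 21.7 and 22.0 CPM with DMSO and 20.1, 20.6 and 20.7 CPM with doxycycline in EV. It was 21.7, 21.2 and 21.6 CPM against 24.1, 23.6 and 23.5 CPM in sh4, and 22.7, 23.7 and 24.4 CPM against 27.6, 29.0 and 27.3 CPM in shAMB. It was thus higher without overlap in both hairpin lines and lower without overlap in EV, and in xenografts the groups overlapped. Lack of overlap was also seen for 41.3% of all single genes tested in sh4, 73.4% in shAMB and 14.1% in EV. In shAMB the 2 that rose were the C-type genes PCDHAC1 and PCDHAC2, which lie at the end of the variable exons next to the constant ones. PCDHAC1 rose from 1.31, 1.05 and 1.36 CPM to 3.85, 3.14 and 2.82 CPM (2.64-fold, log2 fold change 1.40, SE 0.249, adjusted p = 0.000149). PCDHAC2 rose from 3.81, 3.81 and 3.38 CPM to 6.52, 7.85 and 6.34 CPM (1.89-fold, adjusted p = 8.31e-05). In both genes each doxycycline library lay above each DMSO library, and the effects differed from those in EV by 1.59 and 0.73 (adjusted p = 0.00251 and 0.0134). In sh4 the differences were 0.26 for PCDHAC1 (interval -0.30 to 0.82) and 0.27 for PCDHAC2 (interval -0.06 to 0.60), and the shAMB effect was larger by 1.14 and 0.65 (adjusted p = 0.0133 and 0.0176).

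PCDHAC2 and PCDHAC1 were also higher in KO tumours. PCDHAC2 was 4.51, 6.03, 3.38 and 5.49 CPM in the control and 9.37, 9.38, 8.85 and 7.68 CPM in KO tumours (1.82-fold, adjusted p = 0.00396). PCDHAC1 was 8.84, 9.66, 6.99 and 7.29 CPM against 11.8, 11.4, 10.2 and 10.9 CPM (1.35-fold, adjusted p = 0.0308), without overlap, though its call was lost without control replicate 1, 3 or 4 or KO replicate 1, 2 or 3 (adjusted p of 0.0522 to 0.102). Of the other alpha genes PCDHA10 was higher (0.62, adjusted p = 0.0399) and PCDHA1 lower (-0.84, adjusted p = 0.0484). PCDHA10 lost its call without control replicate 1, 3 or 4 or KO replicate 2 or 4 (adjusted p of 0.0596 to 0.111), and PCDHA1 without any library but KO replicate 1 (adjusted p of 0.0516 to 0.117). PCDHA3, the leading alpha gene, stood at 8.61 to 12.6 CPM in all hairpin libraries in culture and differed by 0.14 in sh4, -0.04 in shAMB and -0.08 in xenografts, none past the threshold in edgeR. Limma on TPM called it higher in sh4.

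The make-up of each cluster, taken as each member's share of the cluster's summed TPM, differed between culture and xenografts, which is given as a description with no test. The deposited culture and xenograft tables were normalised apart, so that shares within a cluster are set side by side here and not levels. In EV cells with DMSO PCDHA3 held 42.1% ± 1.81 of the alpha TPM, PCDHA2 21.8% ± 3.05 and PCDHAC2 14.6% ± 2.40 (SD, n = 3). In control xenografts PCDHA3 held 17.4% ± 2.35 and PCDHA2 12.3% ± 1.17 (SD, n = 4), and 8 of 15 members held at least 5% in place of 5. The effective number of members, the number of equal shares with the same evenness, was 3.92 against 10.7 for alpha, 3.47 against 13.3 for gamma and 6.15 against 7.85 for beta. In the gamma cluster PCDHGC3 held 43.5% in EV cells with DMSO and 10.4% in control xenografts, and PCDHGB5 30.7% and 18.1%. Across all 6 culture groups the effective number was 3.82 to 4.50 for alpha and 3.20 to 4.16 for gamma. Estimated counts were whole in 32.5% of alpha and 61.4% of gamma values in xenografts, above the shares in culture, and the part of counting, of mouse RNA and of growth as a tumour in this difference was not tested.

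**Figure D4:**
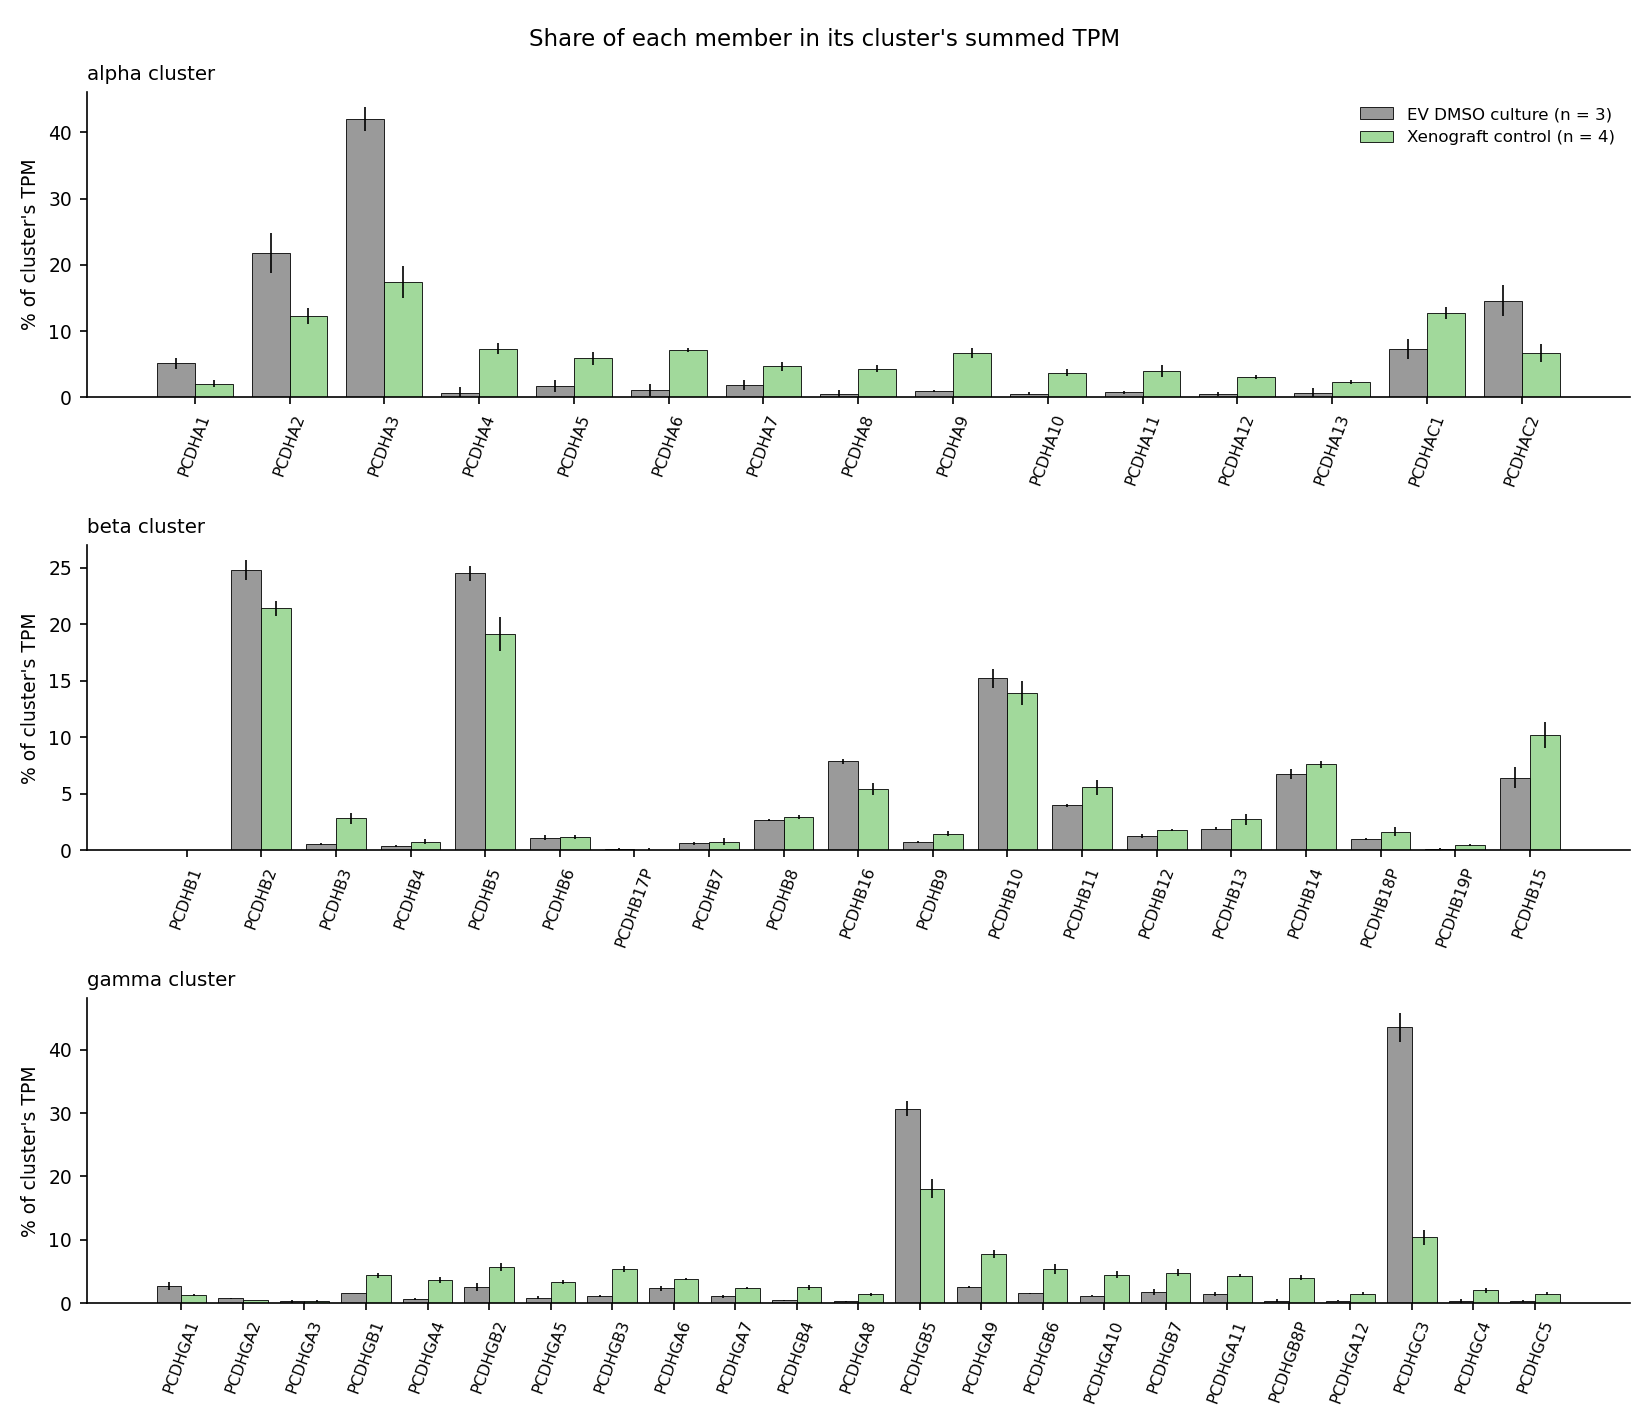
Share of each member in the summed TPM of its cluster (y axis, percent) in EV cells with DMSO and in control xenografts, with SD as lines. PCDHA3 in the alpha and PCDHGC3 in the gamma cluster led in culture, and shares were more even in xenografts.

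Within the beta cluster the share of the leading genes shrank where they fell. PCDHB5 held 22.3% of the beta TPM in shAMB cells with DMSO and 14.4% with doxycycline, and 19.1% in control xenografts and 10.5% in KO tumours. PCDHB2, PCDHB5 and PCDHB10 together held 64.9% with DMSO and 54.2% with doxycycline in shAMB, and 65.5% and 58.8% in sh4. In control xenografts these genes led with 54.4%, whereas in KO tumours the leading genes were PCDHB2, PCDHB15 and PCDHB14 with 42.4%. In the alpha cluster of shAMB cells PCDHAC1 rose from 5.36% to 14.8% and PCDHAC2 from 17.1% to 26.2%, while PCDHA3 went from 43.7% to 32.7%.

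Genes of the machinery that acts on these promoters were followed as fixed lists. Of 14 CTCF and cohesin genes, 3 were higher and 0 lower in sh4 (ESCO1, HDAC8 and STAG2), with a median of 0.04. In shAMB 2 were higher and 7 lower, with a median of -0.12. The shares called, 21.4% in sh4, 64.3% in shAMB and 28.6% in xenografts, did not exceed those of all genes (40.9%, 66.0% and 41.1%). HDAC8, the deacetylase that recycles cohesin, differed by 0.34 in sh4 and -0.68 in shAMB, and by -0.53 in xenografts. RAD21, SMC1A and PDS5A, all cohesin subunits or regulators and among the 7 lower, differed by -0.39, -0.40 and -0.63 in shAMB. The 2 higher there were NIPBL (0.36) and MAU2 (0.68), while SMC3 and STAG2 were not called. CTCF did not pass the test in either line or in xenografts, with differences of 0.03, -0.08 and -0.10. In xenografts 1 of the 14 was higher, NIPBL (0.46), and 3 were lower.

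Of 18 genes of DNA methylation and repressive chromatin, 7 were higher and 4 lower in sh4, 8 were higher and 4 lower in shAMB, and 3 were higher and 5 lower in xenografts, with medians of 0.03, 0.15 and -0.05. The shares called were 61.1%, 66.7% and 44.4%, the last pair near those of all genes (40.9%, 66.0% and 41.1% in the 3 comparisons). SMCHD1, a silencer of clustered protocadherin promoters, rose by 0.33 in sh4, and differed by -0.09 in shAMB and -0.05 in xenografts, where it was not called. REST, the repressor of neuronal genes, rose by 1.14, 0.49 and 0.54 in the 3 comparisons. DNMT3B, a de novo DNA methyltransferase, was not called in sh4 (-0.11) and differed by -0.66 in shAMB and -1.19 in xenografts. Of 24 genes for partners and proteases of the proteins, 3 were higher and 6 lower in sh4, 9 and 9 in shAMB, and 4 and 5 in xenografts, or 37.5%, 75.0% and 37.5% called. RET, a receptor kinase that binds clustered protocadherins, rose by 0.14 in sh4, 1.33 in shAMB and 1.54 in xenografts. ADAM10, which cuts the proteins at the membrane, was not called in any of the 3, with differences of -0.12, -0.06 and -0.07.

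Neighbouring genes on chromosome 5 were called in both directions. Of 22 tested around the clusters, 2 were higher and 6 lower in sh4 (median -0.09), 9 higher and 7 lower in shAMB (median 0.07), and 5 higher and 6 lower in xenografts (median -0.04), or 36.4%, 72.7% and 50.0% called. Of all genes 40.9%, 66.0% and 41.1% were called. TAF7, which lies between the beta and gamma clusters, differed by 0.02, 0.01 and 0.06 and was not called. Of 11 protocadherins encoded outside the clusters, 2 were higher and 4 lower in sh4, 4 higher and 6 lower in shAMB, and 2 higher and 5 lower in xenografts, with medians of -0.31, -0.75 and -0.46, and 54.5%, 90.9% and 63.6% called. These shares lay above the 40.9%, 66.0% and 41.1% of all genes. PCDH10 differed by 0.30 in sh4 and fell by 0.82 in shAMB and by 1.54 in xenografts. PCDH19 was lower in all 3, with differences of -0.44, -1.52 and -2.71.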

How the data were processed

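RNA of 18 culture and 8 xenograft libraries was sequenced. The authors deposited expected counts, the estimated numbers of reads per gene from RSEM, in 1 table for culture and 1 for xenografts, and TPM values in 2 others. The submitters' processing notes name STAR, SAMtools, RSEM and the build hg38. Tool versions are stated by the study for mouse ganglia alone, and for these libraries versions, the use of strand and the treatment of mouse reads are not given in the sources used here, and no mouse gene was analysed.

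Expected counts were rounded and tested in R 4.3.3 with edgeR 4.0.16 (filterByExpr, TMM, two-sided quasi-likelihood F test), with the 18 culture libraries in 1 fit over 14905 genes and the 8 xenografts in another over 15960. P-values were adjusted by Benjamini-Hochberg over all genes tested, and called means an adjusted p under 0.05. CPM used TMM-scaled totals. Fold changes are fitted values, and intervals are at 95%. The edgeR fit was tried on simulated counts with known changes. That simulation used the spread of the culture libraries for xenografts too, where the spread was larger.

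Groups came from the sample labels. Members, lists and tests were chosen with earlier results of these data known. Named by rule were the C-type genes, the leading gene of each cluster per length, and in each of sh4, shAMB and xenograft the 10 called members with the largest change among those without overlap and with a mean of at least 0.5 CPM. PCDHA2, PCDHA10, PCDHB4, PCDHB11, PCDHB14, PCDHB15, PCDHGA2, PCDHGA3, PCDHGA5, PCDHGA10, PCDHGB3, PCDHGB4 and the genes named from the lists were named after their values were seen.

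Alternatives were RLE size factors, no filter on low counts, a log2 fold change of at least 1, DESeq2 1.42.0, limma 3.58.1 on log2(TPM + 0.1) for genes of at least 0.5 TPM, removal of trends in GC content and gene length, a replicate block, and leaving out each library. Same-numbered replicates were not taken as pairs.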

Additional observations from a re-analysis of the deposited data

Results flagged for a closer look

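In the group of xenografts labelled KO, PCDHB2 stood at 12.4 CPM in replicate 1, far from the other 3 libraries, with a gap of 0.855 of the group's range where the critical value for 4 samples is 0.829. This was 1 of 58 groups of 4 tested, and chance flags about 1 in 20.

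The effect of doxycycline differed between sh4 and shAMB, with opposite signs that each passed the test, for 6 beta genes. The sh4 effect exceeded the shAMB effect on the log2 scale by 1.44 for PCDHB18P, 1.28 for PCDHB6, 1.25 for PCDHB9, 0.82 for PCDHB16, 0.62 for PCDHB14 and 0.48 for PCDHB15, each past an adjusted p of 0.05 in edgeR. Over all genes tested 6.94%, or 1034, were called higher in sh4 and lower in shAMB. All 1034 also had a called difference, so that for genes picked this way the difference adds no separate support. None of the 6 kept its call in both lines under every alternative run, as PCDHB14 lost that in shAMB with limma on TPM and PCDHB15 lost that in shAMB without any 1 of 6 libraries.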

How the results depend on the processing

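No alternative reversed a called member, and of 743 alternative values for 55 called results 601 kept their side of the threshold and 142 lost it. With a log2 fold change of at least 1 the members called fell to 1 in sh4, 5 in shAMB, 3 for sh4 minus EV, 2 for shAMB minus EV, 7 for sh4 minus shAMB, 0 for either line against EV with DMSO and 4 in xenografts. For shAMB against EV with DMSO the count was 0 with RLE size factors, with no filter and with the replicate block, and 2 with GC and length trends removed, with or without the block. In xenografts limma on TPM called 2 and the replicate block with GC and length trends removed called 29, and the cause was not tested. Leaving out 1 library gave 0 for EV, 11 to 15 for sh4, 11 to 15 for shAMB, 9 to 14 for sh4 minus EV, 8 to 12 for shAMB minus EV, 16 to 21 for sh4 minus shAMB, 1 to 2 for sh4 and 0 for shAMB against EV with DMSO, and 9 to 25 for xenografts. The lowest counts were without DMSO replicate 1 in sh4 and without DMSO replicate 3 in shAMB.

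With the replicate block alone 17 members were called in sh4, 16 in shAMB and 13 in xenografts, while deviations of same-numbered libraries correlated at -0.603 to 0.374, so that the numbers were not taken as pairs. Limma on TPM shifted the median of all genes by 0.16 in both sh4 and shAMB, and removal of GC and length trends shifted it by -0.14 in shAMB. Low counts limit members under about 1 CPM.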
